A study of Caenorhabditis elegans with 2 samples.

Results

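Regions listed at tRNA genes were examined in chromatin immunoprecipitation with sequencing (ChIP-seq) of SPTF-1, an Sp-type zinc finger protein, in whole larvae of the nematode Caenorhabditis elegans. The regions were chosen by position alone: a region was taken when it shared at least 1 bp with a nuclear tRNA gene extended by 250 bp on both sides. By this rule 155 of 30000 regions in replicate 1, 190 of 30000 in replicate 2, 2 of 193 in the pooled list and 0 of the 18 optimal IDR peaks were at tRNA genes. IDR, the irreproducible discovery rate, judges a peak by how alike its rank is between replicates. The annotation of the WBcel235 assembly, which is ce11, holds 612 nuclear tRNA genes with a median length of 72 bp.

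The 2 samples are biological replicates of 1 group. Both came from L1 larvae, the first larval stage, of mixed sex and unknown age, of strain OP196, whose genotype is unc-119(ed3) III with the insertion wgIs196 for eGFP-tagged SPTF-1. Both carried the tagged protein, and the antibody is named in the labels by its target alone. Larvae were used whole, so no cell type can be told from another. No untagged or other control list was analysed here, so there is no comparison between conditions, and read depth was unknown. The replicate lists reach far below the usual threshold, since 40 regions of replicate 1 and 29 of replicate 2 had a q value under 0.05.

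RNA polymerase III transcribes tRNA genes from promoter elements that lie inside the gene, named box A and box B. The factor TFIIIC binds these boxes and places TFIIIB just upstream of the gene, and transcription ends at a run of T behind it. Sp family proteins are known for binding GC-rich sequence, such as the GC box, in promoters of RNA polymerase II. Many tRNA genes exist in several identical copies, and in this worm a large share of them lies on the X chromosome.

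The genes below are shown because they were among the best ranked tRNA genes, 6 of them by mean rank in both replicates and T14G8.t1 by its rank in replicate 1. Not every gene of such rank is printed. They are given from 5′ to 3′ as the strand of the gene reads in WBcel235. Capitals mark the letters GTTCNANNC, the core of box B, where a gene held them. A rank is that of the best region reaching the extended gene, and this region need not overlap the printed sequence. In replicate 1 it overlapped Y73B6BL.t1 and K12H4.t1 alone among these genes. For F49E7.t1 and T14G8.t1 it overlapped the gene in neither replicate.

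Y73B6BL.t1, tRNA-Val, chromosome IV, 6481161 to 6481233, plus strand: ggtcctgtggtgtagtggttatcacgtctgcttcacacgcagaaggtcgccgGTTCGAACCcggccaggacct
K12H4.t1, tRNA-Pro, chromosome III, 8069405 to 8069476, plus strand: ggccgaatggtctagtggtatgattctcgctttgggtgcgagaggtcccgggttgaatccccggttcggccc
T14G8.t1, tRNA-Pro, chromosome X, 12854840 to 12854911, minus strand: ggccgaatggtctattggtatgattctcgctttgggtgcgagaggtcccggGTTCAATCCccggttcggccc
F49E7.t1, tRNA-Arg, chromosome X, 1089400 to 1089474, plus strand: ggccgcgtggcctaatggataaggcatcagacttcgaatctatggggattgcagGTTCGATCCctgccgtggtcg
F49E7.t2, tRNA-Arg, chromosome X, 1089838 to 1089910, plus strand: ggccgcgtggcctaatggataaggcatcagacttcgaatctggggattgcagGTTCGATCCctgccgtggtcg
Y65A5A.t2, tRNA-Ala, chromosome IV, 16399184 to 16399255, plus strand: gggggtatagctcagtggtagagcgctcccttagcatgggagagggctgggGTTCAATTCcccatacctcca
F22F1.t2, tRNA-Ser, chromosome X, 8154445 to 8154526, plus strand: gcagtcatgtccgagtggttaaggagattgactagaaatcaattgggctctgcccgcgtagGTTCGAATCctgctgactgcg

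The box B letters were found in 587 of the 612 tRNA genes, which is 95.9% (95% exact interval 94.0 to 97.3%). They were found on either strand in 2.07% of windows of 72 bp at protein-coding starts. K12H4.t1, the tRNA gene with the highest signal in replicate 1, was among the 25 genes without them. Counted from its first base, it differed from T14G8.t1, its relative of the same length, by T15G and C55G, and the latter falls within the box B letters of T14G8.t1. Of the 587 genes with the letters 28.8% were reached by a listed region in replicate 1 and 32.7% in replicate 2, against 6 and 10 of the 25 genes without, so genes with the letters were reached more often in replicate 1 and less often in replicate 2, within counting error. Of the regions at tRNA genes 43.2% and 51.6% held the letters on either strand, against 11.6% and 12.7% of all regions, which follows in part from the rule, since many of these regions include a tRNA gene. A run of at least TTTT lay within 30 bp behind 605 of the 612 genes.

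The first question was how often tRNA genes were reached. In replicate 1 a listed region reached 175 of the 612 extended tRNA genes, 28.6% (95% exact interval 25 to 32.4%), and in replicate 2 it was 202 genes, 33.0% (29.3 to 36.9%). The mean of the replicates was 30.8% ± 3.12 (SD, n = 2). Uniform placement of as many intervals of the same width on the same chromosomes, worked out per gene without any draw, gives 24.0% and 24.2%. Both replicates thus lay above placement, by a factor of 1.19 and 1.36. These intervals cover counting error only, and neighbouring genes can share a region, so they are too narrow. With overlapping windows merged into 516, 28.3% (24.4 to 32.4%) were reached in replicate 1, where placement gives 25.1%. In replicate 2 it was 34.7% (30.6 to 39%), where placement gives 25.4%. Counted so, the interval of replicate 1 included placement and that of replicate 2 lay above it.

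Other gene classes lay above placement as well. Windows at the starts of 19973 protein-coding genes, as wide as an extended tRNA gene of median length, were reached at 25.9% in replicate 1 and 26.4% in replicate 2, where placement gives 23.7% and 24.0%. Of 736 snoRNA, miRNA and snRNA genes, short genes extended in the same way, 28.8% and 28.5% were reached, where placement gives 24.8% and 25.1%. For the 346 snoRNA genes alone, whose RNAs guide chemical modification of other RNAs, the shares were 32.1% (95% exact interval 27.2 to 37.3%) and 31.5% (26.6 to 36.7%). These are 1.27 and 1.23 times placement. The 15363 piRNA genes, which yield short RNAs of the germ line, were reached at 26.6% and 25.6%, or 1.18 and 1.14 times placement. In replicate 1 the share of tRNA genes was thus close to that of the short noncoding genes, and in replicate 2 it was higher, with counting intervals that overlapped (29.3 to 36.9% and 25.3 to 31.9%). Among 129 snRNA genes, most of them spliceosomal RNAs, 22.5% and 24.8% were reached, just under the 24.7% and 25% of placement. Genes for 5S ribosomal RNA, also made by RNA polymerase III, were reached at 1 of 16 copies in each replicate, and 0 were reached in both. Placement gives 23.9% and 24.7%, inside the exact interval of 0.158 to 30.2% in each replicate.

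**Figure D1:**
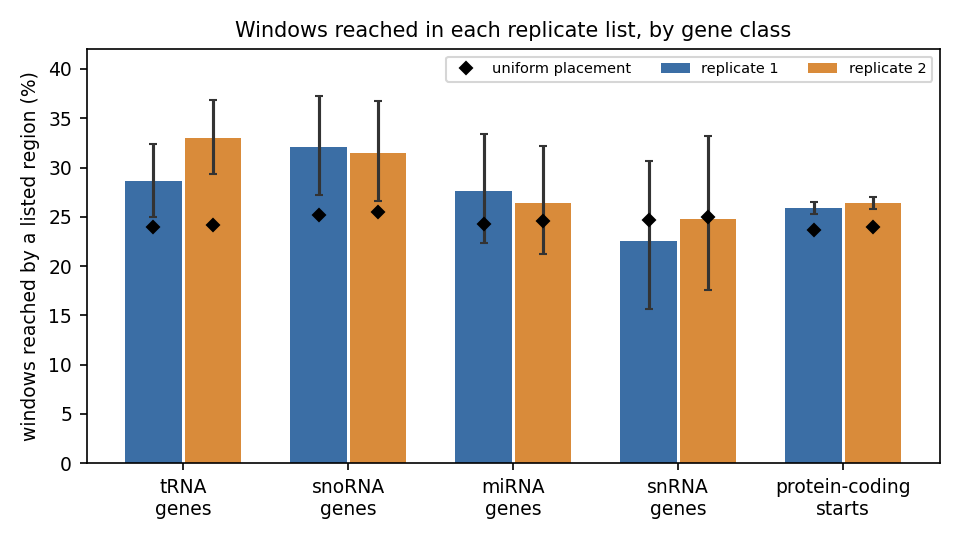
Share of gene windows reached by a listed region, in percent, for 5 gene classes in each replicate list. Bars start at 0, error bars are 95% exact intervals for counting error, and diamonds mark uniform placement; tRNA genes stand at 28.6 and 33.0% with placement at 24.0 and 24.2%, and the snoRNA bars overlap with them.

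Counted by region instead of by gene, the excess was smaller in replicate 1. Regions at tRNA genes made 0.517% of the list in replicate 1 (95% exact interval 0.439 to 0.604%), where 0.495% of all placements fall at a tRNA gene, which is 148 regions against the 155 found. In replicate 2 they made 0.633% (0.547 to 0.730%), against 0.5%, or 150 regions against 190. A single region reached up to 4 tRNA genes in replicate 1 and up to 3 in replicate 2, and 21 and 23 regions reached more than 1. The 170 tRNA genes whose windows overlap another's were reached at 34.7% in replicate 1, and the 442 others at 26.2%. The exact interval of the 442, 22.2 to 30.6%, included their placement share of 24%. It also overlapped that of the 170, 27.6 to 42.4%, which is too narrow because these genes can share regions. In replicate 2 the shares reached were 32.4% and 33.3%, so genes with overlapping windows had the higher share in replicate 1 alone, with counting intervals that overlapped.

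The second question was where these regions ranked by signal, the peak caller's value whose scale is not stated, so that ranks count only within a list. In replicate 1 the regions at tRNA genes had signals from 7.53 to 19.3 with a median of 9.50, where the list's median was 9.78 and its maximum 37.1. In replicate 2 they ran from 6.13 to 17.1 with a median of 8.12, against 8.13 and 26.5 for the list. On a scale of rank percentiles, with 100 the highest signal, the medians were 45.3 and 49.9. Regions at tRNA genes therefore spread over most of the range of each list and did not gather at its top.

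Regions at tRNA genes made no larger share of the top 5000 than of the whole list. Of the regions at tRNA genes, 20 of 155 in replicate 1, 12.9% (95% exact interval 8.06 to 19.2%), and 30 of 190 in replicate 2, 15.8% (10.9 to 21.8%), were in the top 5000, which holds 16.7% of each list. The top 500 held 1 and 3 of them, where the list's own share gives 2.58 and 3.17. None had a q under 0.05. Taking 3 counts as the limit that a count of 0 allows, 0 of 40 and 0 of 29 such regions at tRNA genes allow shares up to 7.50% and 10.3%, and 0 of the 18 optimal IDR peaks up to 16.7%. The exact interval for the optimal IDR peaks runs from 0 to 18.5%. The lowest q at a tRNA gene was 0.299 in replicate 1 and 0.108 in replicate 2.

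**Figure D2:**
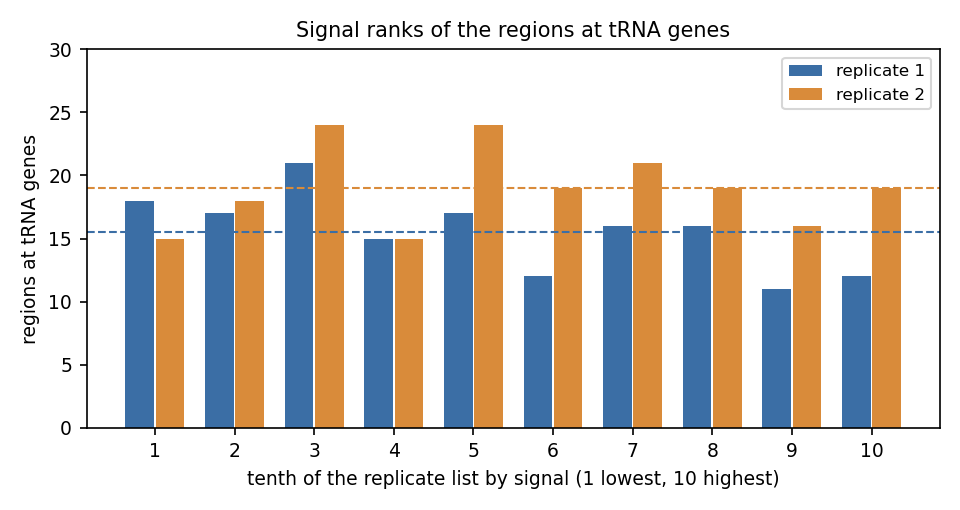
Number of regions at tRNA genes in 10 equal bins of the replicate lists by signal, from lowest (1) to highest (10). Dashed lines mark an even spread, 15.5 regions in replicate 1 and 19 in replicate 2; the highest bars on the right hold 12 and 19.

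The third question was whether the replicates listed the same tRNA genes. Of the 612 genes, 69 were reached in both replicates, 106 in replicate 1 alone, 133 in replicate 2 alone and 304 in neither. The 69 genes make 11.3% (95% exact interval 8.88 to 14.1%), where the product of the shares of both replicates is 9.44%. The same step was seen at protein-coding starts, with 8.47% reached in both against a product of 6.83%, and at the short noncoding genes, with 10.5% against 8.22%. Of the regions at tRNA genes in replicate 1, 52 of 155, 33.5% (95% exact interval 26.2 to 41.6%), overlapped a region of replicate 2, where the whole list had 27.9%. In the other direction it was 53 of 190, 27.9% (21.6 to 34.8%), where the whole list had 28.1%. Over the whole lists, overlap at tRNA genes thus stayed within counting error of that of all regions. Both lists were derived in part from the same further file, and its part in the shared regions was not tested.

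Within the top 5000 of both lists a smaller share of all regions met, while few regions at tRNA genes were left to compare. Of the 20 regions at tRNA genes in the top 5000 of replicate 1, 5 met a region of the top 5000 of replicate 2. That is 25% (95% exact interval 8.66 to 49.1%), where all regions of the top 5000 had 6.52%. The interval lay above 6.52% but rests on 5 regions and covers counting error only. It also included the 33.5% found at tRNA genes over the whole list of replicate 1. These 5 lay at K01A11.t1, Y73B6BL.t1, K12H4.t1, Y65A5A.t2 and the group of F49E7.t1, F49E7.t2 and F49E7.t3. Across the 69 genes reached in both replicates, Spearman's rho between the best signals was 0.313, and 0.310 over the 64 distinct pairs of regions behind them. The regions of such a pair need not overlap. Across the 47 overlapping pairs of regions at tRNA genes rho was 0.32, and across all 8801 overlapping pairs of regions of both lists it was 0.0206. These are descriptions over genes and regions of the same libraries, which are not independent replicates.

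**Figure D3:**
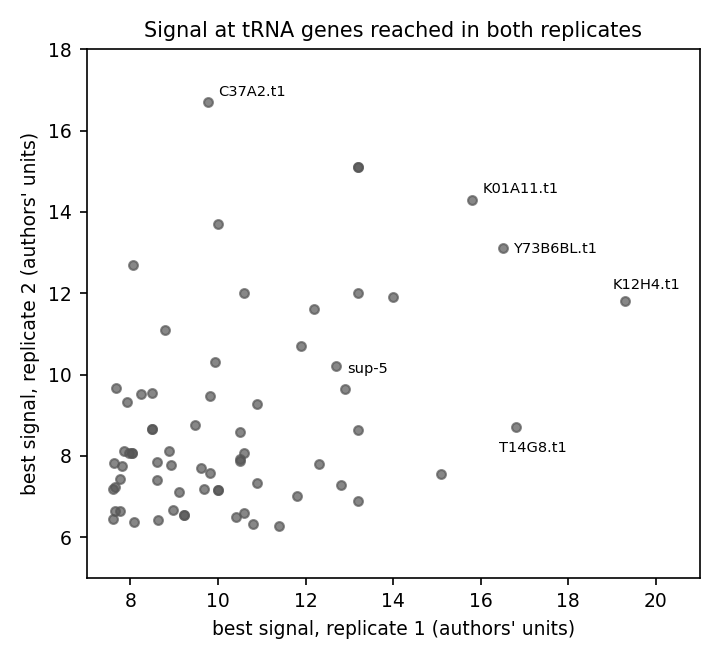
Best signal at each of the 69 tRNA genes reached in both replicates, replicate 1 on the x axis and replicate 2 on the y axis, in the authors' units. Most genes lie in the lower part of both signal axes, where the medians of the whole lists, 9.78 and 8.13, lie as well. K01A11.t1, Y73B6BL.t1 and K12H4.t1 stand high in both, while C37A2.t1 and T14G8.t1 are high in only 1.

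K01A11.t1 (WBGene00014415), a tRNA-Lys gene on chromosome III at 3426913 to 3426985, minus strand, had the best mean rank among the 69 tRNA genes reached in both replicates. Its region ranked 1459 of 30000 with a signal of 15.8 in replicate 1 and 838 with 14.3 in replicate 2. It was also 1 of the 2 tRNA genes reached in the pooled list, by the region at 3426567 to 3426910, which ranked 60 of 193 with a signal of 32.1 and a q of 0.916. The gene lies in an intron of metl-18, which belongs by name to the methyltransferase-like genes, and has 25 identical copies in the genome, itself included. Its pooled summit was 246 bp downstream of the 5′ end of the gene, outside the tRNA sequence itself.

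Y39B6A.t10 (WBGene00014568), a tRNA-Glu gene on chromosome V at 19142788 to 19142859, plus strand, was the other gene reached in the pooled list. The pooled region at 19143100 to 19143443 ranked 29 of 193 with a signal of 33.9 and a q of 0.544, and the replicate 2 region ranked 172 with a signal of 17.1, the best rank of any tRNA gene in that list. In replicate 1 the region overlapping the pooled one ranked 550 with a signal of 17.8, but it began at 19143189, beyond the 250 bp limit, so the gene did not count as reached there. The gene lies in an intron of cpg-23, and the pooled summit was 484 bp from its 5′ end.

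The stretches of 120 bp at both pooled summits, read on the plus strand of WBcel235, are shown because they are the only places at tRNA genes that the pooled list holds. Neither holds GGGCGG on either strand, and neither reaches into the tRNA gene. The 2 pooled regions at tRNA genes made 1.04% of that list, with an exact interval for counting error of 0.126 to 3.69%. This interval included the 0.483% of placement, which gives 0.933 regions.

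Summit near K01A11.t1, chromosome III, 3426679 to 3426798: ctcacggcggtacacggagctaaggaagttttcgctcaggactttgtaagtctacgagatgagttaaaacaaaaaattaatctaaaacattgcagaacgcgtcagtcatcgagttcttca
Summit near Y39B6A.t10, chromosome V, 19143212 to 19143331: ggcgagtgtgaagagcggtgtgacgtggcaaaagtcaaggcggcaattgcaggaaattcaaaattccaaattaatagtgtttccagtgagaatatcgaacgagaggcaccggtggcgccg

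Y73B6BL.t1 (WBGene00023192), the tRNA-Val gene shown above, ranked 1064 with a signal of 16.5 in replicate 1 and 1635 with 13.1 in replicate 2. It lies in an intron of tyr-6, a gene of the tyrosinase family. Its summit was 24 bp inside the gene in replicate 1 and 126 bp upstream of it in replicate 2. Among the genes named here it was the only one with a replicate summit inside the tRNA gene.

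K12H4.t1 (WBGene00023107) ranked 270 with a signal of 19.3 in replicate 1 and 3038 with 11.8 in replicate 2. This tRNA-Pro gene has no identical copy and lies in an intron of pros-1, the worm gene of the Prospero family of homeodomain proteins. The summits lay 120 bp downstream of the 5′ end in replicate 1 and 120 bp upstream of it in replicate 2, and both regions overlapped the gene. T14G8.t1 (WBGene00014519), the related tRNA-Pro gene, ranked 896 with a signal of 16.8 in replicate 1 but 12002 with 8.71 in replicate 2.

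The neighbouring tRNA-Arg genes F49E7.t1 and F49E7.t2 shared their regions, which ranked 4277 with a signal of 13.2 in replicate 1 and 515 with 15.1 in replicate 2. Y65A5A.t2, a tRNA-Ala gene with 15 identical copies, ranked 3052 with 14 and 2926 with 11.9. F22F1.t2, a tRNA-Ser gene with 11 copies, ranked 4275 and 2792. Further down came Y105C5A.t1, a tRNA-Lys gene, at ranks 6379 and 3309, and M02F4.t2, a tRNA-Glu gene, at 7099 and 5172. The tRNA-Trp gene sup-5, known as the site of a nonsense suppressor mutation in worms, ranked 5375 with 12.7 and 6607 with 10.2. Of the 10 genes of best mean rank, sup-5 and M02F4.t2 were outside the top 5000 in both lists, and Y105C5A.t1 in replicate 1.

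A region of the top 5000 reached 24 tRNA genes in replicate 1 and 32 in replicate 2, and 7 of them in both. High rank in 1 replicate alone was common over the whole lists as well. Of all regions in the top 5000 of replicate 1, 6.52% met a region of the top 5000 of replicate 2. Examples at tRNA genes follow. F02E11.t1, a tRNA-Ser gene, ranked 988 in replicate 1 and was not reached in replicate 2. T22F3.t4, a tRNA-Pro gene in an intron of the glycogen phosphorylase gene pygl-1, ranked 337 in replicate 2 and was not reached in replicate 1. C37A2.t1, a tRNA-Cys gene in an intron of the cyclin E gene cye-1, ranked 210 with a signal of 16.7 in replicate 2 and 15061 with 9.77 in replicate 1.

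Summits were then placed relative to the 5′ end of the tRNA gene on its own strand, using all listed regions within 1000 bp, in steps of 100 bp. In replicate 1 the highest density, 0.507 summits per kb (95% exact Poisson interval 0.344 to 0.719), lay 200 to 100 bp upstream, where the mean for the same chromosomes was 0.301. In replicate 2 the highest density, 0.539 (0.371 to 0.757), lay in the last 100 bp upstream of the gene, followed by 0.458 (0.304 to 0.661) in the step from 200 to 100 bp upstream, with a mean of 0.300. Of the 20 steps, that from 200 to 100 bp upstream was the only one whose interval lay above the mean in both replicates, and in replicate 2 it did so narrowly. In replicate 1 the step from 600 to 700 bp downstream also lay above it. Around protein-coding starts the densities ran from 0.271 to 0.335 in replicate 1 and from 0.287 to 0.338 in replicate 2. A summit near several tRNA genes was counted once for each, so these intervals are too narrow. The steps named here were picked after the densities of all steps were seen.

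**Figure D4:**
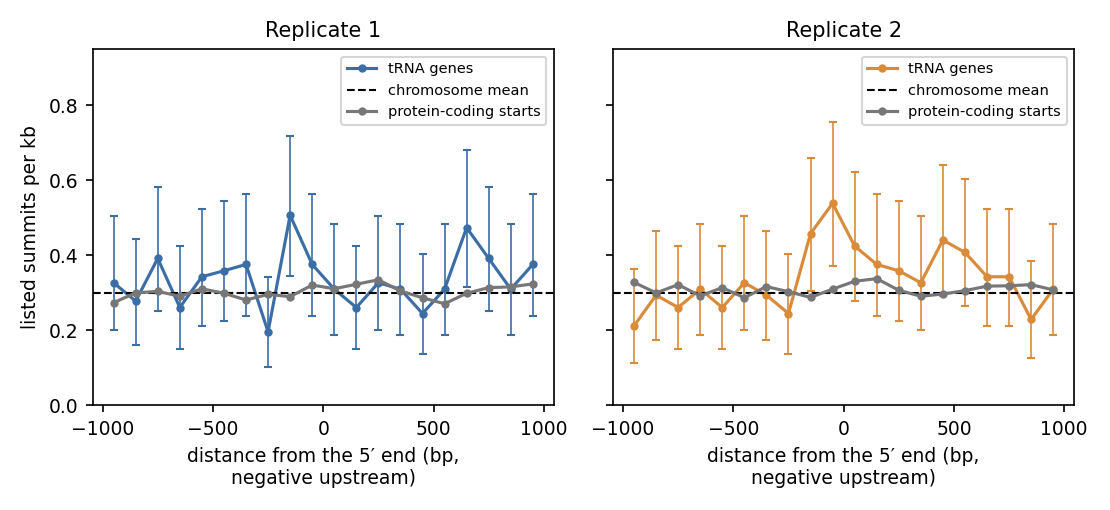
Listed summits per kb against the distance in bp from the 5′ end of tRNA genes (coloured) and from protein-coding starts (grey), with upstream distances negative and 1 panel for each replicate. Error bars are 95% exact Poisson intervals for counting error and the dashed line is the chromosome mean. The highest density at tRNA genes is 0.507 in replicate 1, 200 to 100 bp upstream, against a mean of 0.301. In replicate 2 it is 0.539, in the last 100 bp upstream, against 0.300.

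Taking each region at a tRNA gene once, 77 of 155 summits lay upstream of the gene, 13 inside it and 65 downstream in replicate 1. In replicate 2 it was 85, 22 and 83 of 190. Summits inside thus made 8.39% and 11.6%. The gene, with a median length of 72 bp, covers far less than the stretches of 250 bp or more on each side. These counts are therefore not densities. The median distance of the summit from the 5′ end was 195 bp and 184 bp. The median rank percentile was 42.9 for the 79 regions touching the gene in replicate 1 and 49.2 for the 107 in replicate 2. With a gap of 1 to 100 bp it was 45.6 over 30 regions and 42.7 over 33, so touching regions had the lower median in replicate 1 and the higher in replicate 2. Just inside the limit of the rule, with a gap over 100 and up to 250 bp, the medians were 49.2 and 61.3, and just outside it, with a gap over 250 and up to 500 bp, they were 50.7 and 51.3.

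By chromosome, the X held 276 of the 612 tRNA genes, of which 31.5% (95% exact interval 26.1 to 37.4%) were reached in replicate 1 and 35.1% (29.5 to 41.1%) in replicate 2, where placement gives 24.1% and 24.3%. On chromosome III the shares were 31.2% and 45.3% of 64 genes, and on V 25.6% and 34.6% of 78 genes. The order of the others was not shared: on II 35.1% of 57 genes were reached in replicate 1 but 21.1% in replicate 2, and on I 19.7% and 30.3% of 66 genes. On chromosome IV they were 21.1% and 23.9% of 71 genes, where placement gives 23.9% and 23.7%. The X carried 38 of the 69 genes reached in both replicates.

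RefSeq gives the amino acid for 607 of the 612 genes. Of the 21 kinds of tRNA, 4 were above the share of all tRNA genes in both replicates, 7 were below it in both and 10 were above in 1 and below in the other. The 4 above were those for alanine, glutamate, proline and tyrosine. For tRNA-Glu, which had the most genes reached in both replicates, 15 of 41 genes (36.6%, 95% exact interval 22.1 to 53.1%) were reached in replicate 1 and 22 (53.7%, 37.4 to 69.3%) in replicate 2. Both replicates reached 13 of these genes, which is 31.7%, against 11.3% of all tRNA genes. High shares in each replicate raise the share in both as well, so this is not a separate result. The median best rank of the genes reached, with 1 the highest signal, was 21920 of 30000 in replicate 1 and 13348 in replicate 2, low in the first list and near the middle of the second. tRNA-Tyr genes were reached at 7 and 12 of 19, and tRNA-Pro genes at 14 and 19 of 42. At the other end, tRNA-His genes were reached at 3 and 4 of 20. Among kinds with at least 5 genes the replicates differed most for tRNA-Trp, with 6 and 2 of 12 genes. The kinds named in this paragraph were picked after their values were seen, and genes of a kind often share their sequence.

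**Figure D5:**
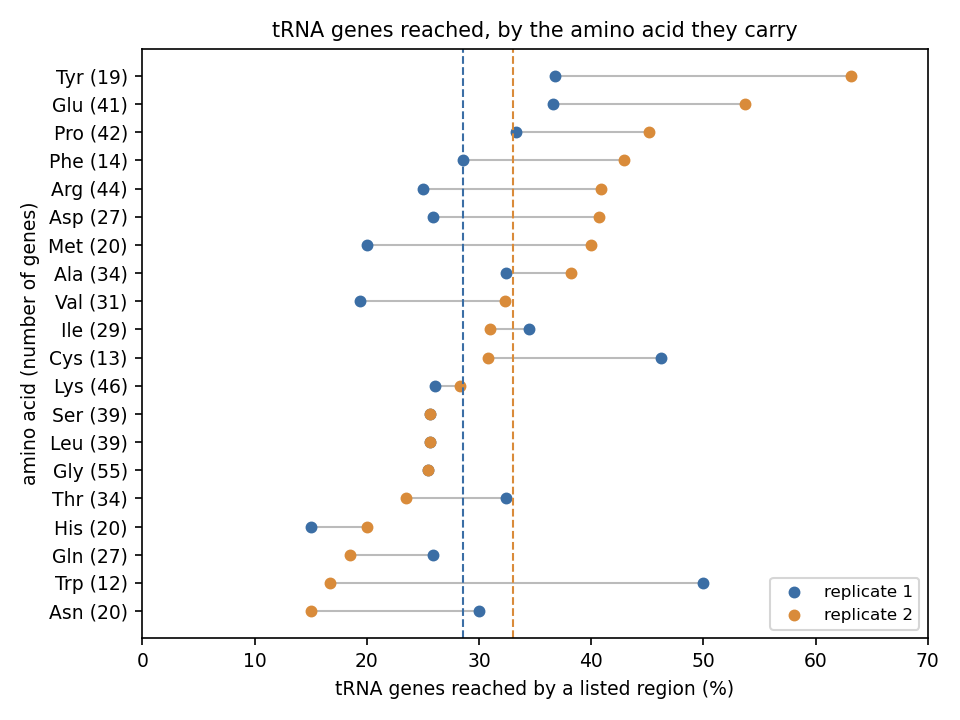
Percent of tRNA genes reached in each replicate, for each amino acid with at least 5 genes, ordered by replicate 2, with the number of genes in brackets. Dashed lines mark all tRNA genes at 28.6 and 33.0%; Tyr, Glu, Pro and Ala lie to the right of the line of each replicate, and Trp is far above it in replicate 1 and far below it in replicate 2.

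Copy number, location and base composition were set beside these shares. The 143 genes with no identical copy were reached at 30.1% in replicate 1 (95% exact interval 22.7 to 38.3%) and 24.5% in replicate 2 (17.7 to 32.4%), and the 469 with one at 28.1% (24.1 to 32.5%) and 35.6% (31.3 to 40.1%). Placement gives 23.9% and 24.2% for the genes with no copy, so these were above it in replicate 1 and close to it in replicate 2. Reads from identical copies cannot be told apart inside the gene, and how the aligner placed them was not given in the sources used here. Of the 283 genes in introns of protein-coding genes 32.5% were reached in each replicate, and of the 319 outside such genes 25.1% and 33.5%. In the 154 windows with the lowest GC content, 26.6 to 36%, the shares were 20.1% and 33.1%, and in the 153 with the highest, 41.9 to 51.2%, they were 29.4% and 39.2%. Between these, windows with 36.1 to 39.1% GC had 33.6% and 28.3%, and those with 39.2 to 41.9% had 31.4% in each replicate. The share thus did not rise steadily with GC content in either replicate. The part of copies and base composition in the excess over placement was not tested.

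The GC box core GGGCGG, searched on both strands, was present in 96 of the 612 extended tRNA genes, 15.7% (95% exact interval 12.9 to 18.8%), in 11.3% of the equally wide windows at protein-coding starts and in 21.1% (18.2 to 24.2%) of the extended snoRNA, miRNA and snRNA genes. With it, 26.0% of tRNA genes were reached in replicate 1 and 34.4% in replicate 2, and without it 29.1% and 32.8%. Inside the regions at tRNA genes it was found in 5.16% (2.25 to 9.92%) in replicate 1 and 7.37% (4.09 to 12.1%) in replicate 2, where all regions of the lists had 5% and 5.67%. Regions at tRNA genes thus held this sequence about as often as the rest of their list, within counting error.

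Genes that act on tRNAs were counted last, at their starts, with the same window as above. Of 20 aminoacyl-tRNA synthetase genes, which load tRNAs with their amino acids, 4 were reached in replicate 1 (lars-1, nars-1, wars-1 and yars-1), 2 in replicate 2 (hars-1 and sars-1) and 0 in both. Of 13 genes for RNA polymerase III and its factors 4 were reached in replicate 1 and 7 in replicate 2. The 3 reached in both were rpc-2, a subunit of the polymerase, rpac-19, a subunit that it shares with RNA polymerase I, and tftc-5, of the factor TFIIIC. At rpac-19 the best rank was 141 in replicate 2 but 14987 in replicate 1. At tftc-5 it was 1598 and 14585. Over all protein-coding starts the shares were 25.9% and 26.4%, and 8.47% were reached in both. A further synthetase gene on the list, vars-2, was not found in the annotation and was left out. With so few genes in either list, these counts are given as a description.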

How the data were processed

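The deposited lists are narrowPeak files on ce11. Per the records of the deposited files, the authors made each replicate list from that replicate's alignment and 1 further file shared by both replicates, and the pooled list from both alignments and that file. Neither aligner nor caller was given in the sources used here. Signal values are a score by the authors' caller with no stated scale, and q values were deposited as −log10 q. Every region was 336 bp or 350 bp wide in the replicates and 344 bp when pooled.

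Overlaps with the Ensembl release 115 annotation of WBcel235 were computed in Python 3.11.15 (numpy 2.4.6, pandas 2.3.3, scipy 1.17.1) and checked on simulated intervals. Amino acids and gene symbols came from RefSeq by WormBase ID, matched for 612 of 612 genes, and sequences from the RefSeq copy of WBcel235. The 22 mitochondrial tRNA genes were left out. Placement shares were computed exactly from window widths, region numbers and chromosome lengths. Intervals are exact Clopper-Pearson or Poisson intervals at 95% and cover counting error only. No significance test was made, since there is 1 group of 2 replicates and regions are not replicates.

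Genes were named by rule: those reached by the pooled or optimal IDR list, those with a q under 0.05, the 10 of best mean rank in both replicates and the 3 best of each replicate. Alternatives changed the extension, the overlap, the gene set and the part of the list. The regions and gene lists were chosen with earlier results of these data known. Lists on ce10 were not used here, because no coordinate was converted.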

Additional observations from a re-analysis of the deposited data

How the results depend on the processing

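Of 38 alternatives, 21 moved a value by less than the spread between the replicates or its counting interval. Part of these could not have moved by more. With 2 replicates, leaving either out always stays within their SD. Merging overlapping windows cannot change which regions are at tRNA genes, their ranks or their overlap. The count of 21 is therefore no measure of how stable the results are. The mean share of tRNA genes reached, 30.8%, was 16.0% with no extension, 22.3% with 100 bp, 43.4% with 500 bp, 21% with the summit inside the extended gene and 27.3% in genes with no identical copy. Placement gives 11.8, 16.9, 34.7, 15.9 and 24.1% for these, so wider windows raise both. With the top 5000 of each list it was 4.58%, against 4.51% by placement, and with the pooled list 0.327%, against 0.172% from 2 genes. The mean share of regions at tRNA genes, 0.575%, was 0.310, 0.415 and 0.858% with those extensions, 0.392% by summit and 0.132% for genes with no identical copy, where placement gives 0.243, 0.348, 0.734, 0.326 and 0.128%. It was 0% among regions with a q under 0.05. The mean of the median rank percentiles, 47.6, was 51.2 for genes with no identical copy. The overlap of replicate 1 regions with replicate 2, 33.5%, was 25% within the top 5000 of both, 23.2% with reciprocal overlap of 50% and 16.8% with summits within 100 bp, where the whole list had 6.52, 17.9 and 12.4%. With no extension it was 27.8%, against 27.9% for the whole list. With either replicate left out, the values ran from 28.6 to 33.0% of genes, from 0.517 to 0.633% of regions and from 45.3 to 49.9 in rank percentile. Beyond the windows and smaller sets, the cause was not tested. No paired analysis was possible because the replicates belong to 1 group with nothing to pair against. Read depth was not known, and most of the 30000 listed regions had a q over 0.05, which limits what their ranks can show.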
